A study of Mus musculus with 4 samples.

Results

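The genes of the major histocompatibility complex (MHC) and of antigen presentation were followed in cultured mouse intestinal epithelium. They were all protein-coding genes whose symbol begins with H2-, the mouse name of the complex, together with Cd74, Ciita, Nlrc5, B2m, Tap1, Tap2, Tapbp, Psmb8 and Psmb9, which gave 43 of the 30284 genes in the files. By role, 2 were classical class I heavy chains (class Ia), 22 were non-classical class I heavy chains (class Ib), 4 were class II chains that present peptide and 5 were class II chains that edit it. The other members were the 9 genes added by name and H2-Ke6, a hydroxysteroid dehydrogenase gene that matches by symbol and encodes no MHC molecule. Of the 43 genes, 39 lay on chromosome 17.

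The organoids were grown in Matrigel from small-intestinal crypts of 2 male C57BL/6J mice with no engineered allele named in the labels. Each mouse gave 1 culture with the vehicle DMSO and 1 culture with 2 µM GW3965, an agonist of the liver X receptors (LXR), and RNA was taken after 6 h, so that each treatment had 2 libraries. The age label reads 9 weeks and refers to day 0 of a colitis protocol that the organoid protocol does not contain, and the extraction text names colon while the tissue label names small intestine. With 1 animal behind each pair of cultures, any comparison between mice is one of 2 single animals.

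Class I molecules sit on nearly all nucleated cells and show peptides from the cell's own proteins to CD8+ T cells. Proteasomes cut those peptides, the TAP transporter carries them into the endoplasmic reticulum, tapasin helps to load them, and each heavy chain pairs with beta-2-microglobulin. Class II molecules show peptides from endosomes to CD4+ T cells; they are typical of dendritic cells, macrophages and B cells, and intestinal epithelial cells also carry them. The coactivators NLRC5 and CIITA switch on class I and class II genes through a shared promoter module that ends in a Y box.

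The core letters of the Y box, ATTGG, stand in capitals, as do the letters CCAAT that mark them on the opposite strand, in the promoter stretches below, which are shown because B2m, H2-K1 and H2-D1 are the most abundant class I genes, because H2-Aa and H2-Eb1 are the most abundant class II chains with a matched promoter, and because H2-Q10 and H2-T3 lack the letters in this window. Each stretch holds the 120 bases before the transcription start on the gene's own strand, from the RefSeq promoter table of GRCm38.p6.
B2m: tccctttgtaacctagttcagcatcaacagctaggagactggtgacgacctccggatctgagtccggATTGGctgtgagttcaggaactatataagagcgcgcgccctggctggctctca
H2-K1: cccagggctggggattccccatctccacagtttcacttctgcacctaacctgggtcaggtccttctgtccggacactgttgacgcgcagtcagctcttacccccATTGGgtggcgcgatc
H2-D1: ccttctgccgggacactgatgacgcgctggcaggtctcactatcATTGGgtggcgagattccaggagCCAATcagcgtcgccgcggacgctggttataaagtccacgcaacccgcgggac
H2-Aa: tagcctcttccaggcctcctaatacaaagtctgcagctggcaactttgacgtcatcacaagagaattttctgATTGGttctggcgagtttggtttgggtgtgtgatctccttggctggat
H2-Eb1: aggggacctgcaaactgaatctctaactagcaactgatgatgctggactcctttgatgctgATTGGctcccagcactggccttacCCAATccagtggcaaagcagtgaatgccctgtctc
H2-Q10: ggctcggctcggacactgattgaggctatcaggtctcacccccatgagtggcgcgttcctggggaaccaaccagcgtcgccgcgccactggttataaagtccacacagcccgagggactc
H2-T3: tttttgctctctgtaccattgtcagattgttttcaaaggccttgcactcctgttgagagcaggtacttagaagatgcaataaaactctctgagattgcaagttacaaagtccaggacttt

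These stretches were chr2:122147567-122147686 (plus strand) for B2m, chr17:34000348-34000467 (minus) for H2-K1, chr17:35262974-35263093 (plus) for H2-D1 and chr17:34287824-34287943 (minus) for H2-Aa. H2-Eb1 was read at chr17:34305747-34305866 (plus), H2-Q10 at chr17:35469969-35470088 (plus) and H2-T3 at chr17:36190152-36190271 (minus). Counted from the start, ATTGG began at position -53 in B2m, -16 in H2-K1, -76 in H2-D1, -48 in H2-Aa and -59 in H2-Eb1. A promoter was matched for 36 of the 43 genes; H2-Ab1, Cd74, Tap2, H2-Q1, H2-T24, Ciita and Nlrc5 had no entry. ATTGG occurred on either strand of the window from 250 bases before to 50 bases after the start in 32 of the 36, against 37.4% of 32851 promoters. On the gene's own strand within 100 bases before the start it occurred in 20 of the 36, against 10.6% of all promoters. The H2- genes are related copies, so these promoters are not independent of each other, and the letters also stood in the promoters of H2-M10.3, H2-M10.4 and H2-M11, which had 0 counts in every library. The core of the interferon-stimulated response element (GAAA, any 2 bases, then GAAA again) occurred in 3 of the 36 promoters (B2m, H2-T22 and H2-T23; 3.44% of all promoters) and the form bound by STAT factors (TTC, any 3 bases, then GAA) in 4 (8.30% of all). A strict direct repeat of the kind LXR binds (AGGTCA and, after any 4 bases, the same letters again) occurred in 0 of the 36 and in 0.0152% of all promoters. All motifs were searched on both strands; a match is a match of letters, and the absence of one says only that these letters are not in this window.

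The 4 libraries held 16572359 to 19486547 estimated counts, and a count of 3, taken as the limit that a count of 0 allows, corresponded to 0.155 to 0.183 CPM, the counts of a gene scaled to a common library size. The treatment registered in both mice: the LXR target Abca1, a cholesterol exporter, stood at 0.462 and 42.8 normalised CPM in the DMSO and GW3965 cultures of mouse 1 and at 1.75 and 60.4 in those of mouse 2 (edgeR quasi-likelihood test, adjusted p = 0.00134). The library of mouse 1 with GW3965 was unlike the others: mitochondrial genes took 14.0% of its counts against 7.60 to 9.43%, summed leukocyte markers were at 40.2 TPM (the same scaling after division by transcript length) against 22.0 to 27.1, and summed T cell and intraepithelial lymphocyte markers at 216 TPM against 89.0 to 122. Summed markers of the epithelium, the labelled tissue, were at 17855 TPM in it against 24824 to 27140. These values are given here because they move with several results below, and their part in those results was not tested. In bulk RNA, fewer cells of a type and less RNA per cell cannot be told apart.

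The organoids expressed the class I pathway at high level, together with a lower but plain class II signal. H2-K1, one of the classical heavy chains, had the highest level of all members at 477 ± 80.0 TPM (SD, n = 4 libraries; the SD here and below spans both mice and both treatments). B2m, the light chain, followed at 455 ± 77.4 TPM, which differs from H2-K1 by less than either SD. H2-D1, the other classical heavy chain, was at 316 ± 44.6 TPM and Cd74, the invariant chain that chaperones class II molecules, at 285 ± 55.8 TPM. Of the 43 members, 5 reached 100 TPM, 20 reached 10 TPM, 26 reached 1 TPM and 17 stayed below; 6 had 0 counts in all 4 libraries, all of them H2-M genes.

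**Figure D1:**
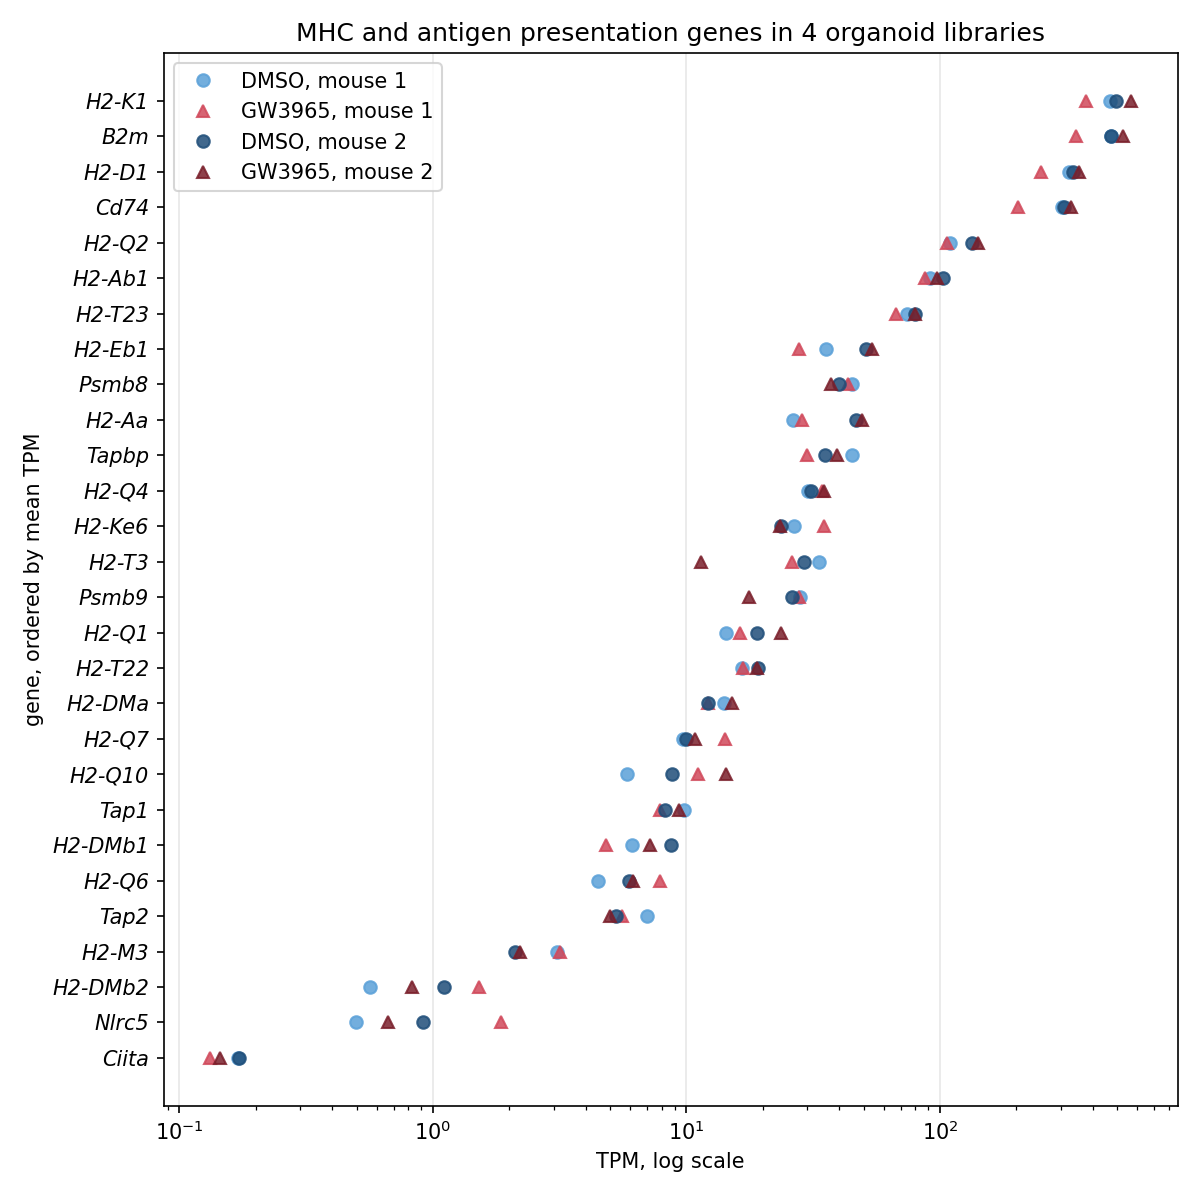
TPM on a log axis of the 26 members at 1 TPM or more and of Nlrc5 and Ciita, one point per library (circles DMSO, triangles GW3965, light shades mouse 1, dark shades mouse 2). H2-K1, B2m, H2-D1 and Cd74 lie above 200 TPM in every library, and Ciita lies below 0.2 TPM in every library.

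In the order DMSO and GW3965 of mouse 1, then DMSO and GW3965 of mouse 2, which is kept below, H2-K1 had 467, 376, 496 and 569 TPM. H2-D1 had 324, 251, 336 and 353 TPM in the same order. For both genes the GW3965 culture of mouse 1 was lowest and the GW3965 culture of mouse 2 highest, so the treatments overlapped. B2m had the same order of libraries, with 471, 345, 474 and 528 TPM. The level of B2m was 0.406 ± 0.026 of the summed class I heavy chains (SD, n = 4), with a range of 0.371 to 0.431.

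Class Ib genes encode less variable molecules, several of which are read by NK cells and unconventional T cells. H2-Q2 was the most abundant of them at 123 ± 17.2 TPM, followed by H2-T23 at 75.2 ± 6.13 TPM. H2-T23 encodes Qa-1, the ligand of the NKG2A inhibitory receptor. H2-Q4 stood at 32.6 ± 2.34 TPM, H2-T3 at 25.0 ± 9.57, H2-Q1 at 18.3 ± 4.03 and H2-T22, whose product is bound by some gamma-delta T cell receptors, at 17.8 ± 1.40. The Qa-2 family members H2-Q7 and H2-Q6 stood at 11.2 ± 2.05 and 6.11 ± 1.37 TPM, H2-Q10 at 5.85 to 14.4 and H2-M3, which presents formylated bacterial peptides, at 2.65 ± 0.569. H2-K1 and H2-D1 together exceeded the 22 class Ib genes 2.45 ± 0.28 times in TPM.

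H2-T3 encodes the thymus leukaemia antigen, a ligand of CD8-alpha homodimers that is known from intestinal epithelium. Its TPM of 33.5, 26.1, 29.1 and 11.4 rest by 64.7, 59.1, 67.2 and 24.7% on 1 annotated transcript of 205 bases. Only in the GW3965 culture of mouse 2 did other transcripts hold most of the TPM. The short transcript held 11.7, 8.28, 10.8 and 1.49 estimated counts and gave 21.7, 15.4, 19.5 and 2.82 TPM. Without regard to length, H2-T3 had 402, 356, 296 and 293 counts, so the low TPM of the GW3965 culture of mouse 2 has no counterpart in its total counts. On protein-coding transcripts alone it had 13.0, 11.8, 10.2 and 6.90 normalised CPM, and the same culture was lowest.

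The genes that supply peptides to class I were lower than the heavy chains. Psmb8 and Psmb9, immunoproteasome subunits, were at 41.4 ± 3.52 and 24.9 ± 4.91 TPM. Tapbp (tapasin) was at 37.4 ± 6.28 TPM, while the transporter subunits Tap1 and Tap2 were at 8.81 ± 0.930 and 5.70 ± 0.895 TPM. Most Tap2 counts, 72.5 to 85.6% in a library, fell on 1 retained-intron transcript. Over all transcripts Tap2 had 16.0, 15.6, 11.6 and 11.8 normalised CPM, and its protein-coding transcripts had 2.31, 4.04, 2.57 and 3.25 normalised CPM. Nlrc5, the class I coactivator, was near the lower end at 0.497, 1.86, 0.917 and 0.664 TPM from 46, 76, 56 and 48 counts.

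On the class II side, H2-Ab1, the beta chain of the I-A molecule, was the most abundant chain at 94.9 ± 6.64 TPM. Its partner H2-Aa, the I-A alpha chain, was at 37.8 ± 12.0 TPM, and H2-Eb1, the beta chain of I-E, at 42.1 ± 12.5 TPM. C57BL/6 mice make no I-E molecule because their alpha chain gene is defective; H2-Ea-ps, the defective gene, was listed at 0 counts in all 4 libraries, each of which had at least 503 counts of H2-Eb1. H2-Ab1 made up 48.8% of the summed class II chains, H2-Eb1 21.1% and H2-Aa 18.9% on average. The peptide editors H2-DMa and H2-DMb1, which free the groove of the invariant chain remnant, were at 13.4 ± 1.47 and 6.70 ± 1.64 TPM. Of the H2-DMa TPM, 62.5, 66.3, 45.2 and 58.9% lay on a retained-intron transcript. The protein-coding transcript of H2-DMa was at 5.29, 4.12, 6.66 and 6.22 TPM. That of H2-DMb1 was higher in each library, at 5.81, 4.80, 8.67 and 7.21 TPM. H2-DMb2 was at 1.00 ± 0.41 TPM, and 31.4% of the 31-base words of H2-DMb1 are shared with it, so the split of reads between these 2 genes is uncertain.

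Ciita, the coactivator on which class II transcription depends in most cells, had 15, 12, 16 and 13 counts, or 0.132 to 0.171 TPM. Its libraries differed by no more than 4 counts. H2-Ob and H2-Oa, the chains of the H2-O inhibitor of peptide editing that is typical of B cells, were both below 1 TPM on average, as was H2-Eb2.

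Cd74 had 303, 203, 308 and 328 TPM, with the GW3965 culture of mouse 1 apart from the other 3 cultures. It exceeded the sum of the 9 class II chains 1.45 ± 0.21 times (range 1.24 to 1.73). Its main transcript, Cd74-201, held 89.3 to 91.5% of the Cd74 TPM. The longer form Cd74-202 had 71.5, 139, 329 and 642 estimated counts and Cd74-203 had 468, 324, 261 and 0.199, in opposite order; these forms share most of their sequence, and single-end reads of 50 bases divide between them by estimate.

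Class I exceeded class II in every library. The 24 class I heavy chains summed to 1093, 932, 1171 and 1266 TPM, and the 9 class II chains to 175, 163, 224 and 225 TPM. The ratio of class I to class II was thus 6.26, 5.71, 5.23 and 5.63, with a mean of 5.71 ± 0.42 (SD, n = 4). With H2-K1 and H2-D1 alone over H2-Aa, H2-Ab1 and H2-Eb1 the ratio was 4.56 ± 0.44 in TPM. Over all chains in normalised CPM, which does not divide by length, it was 8.35 ± 0.65. The ratio overlapped between treatments on each scale.

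**Figure D2:**
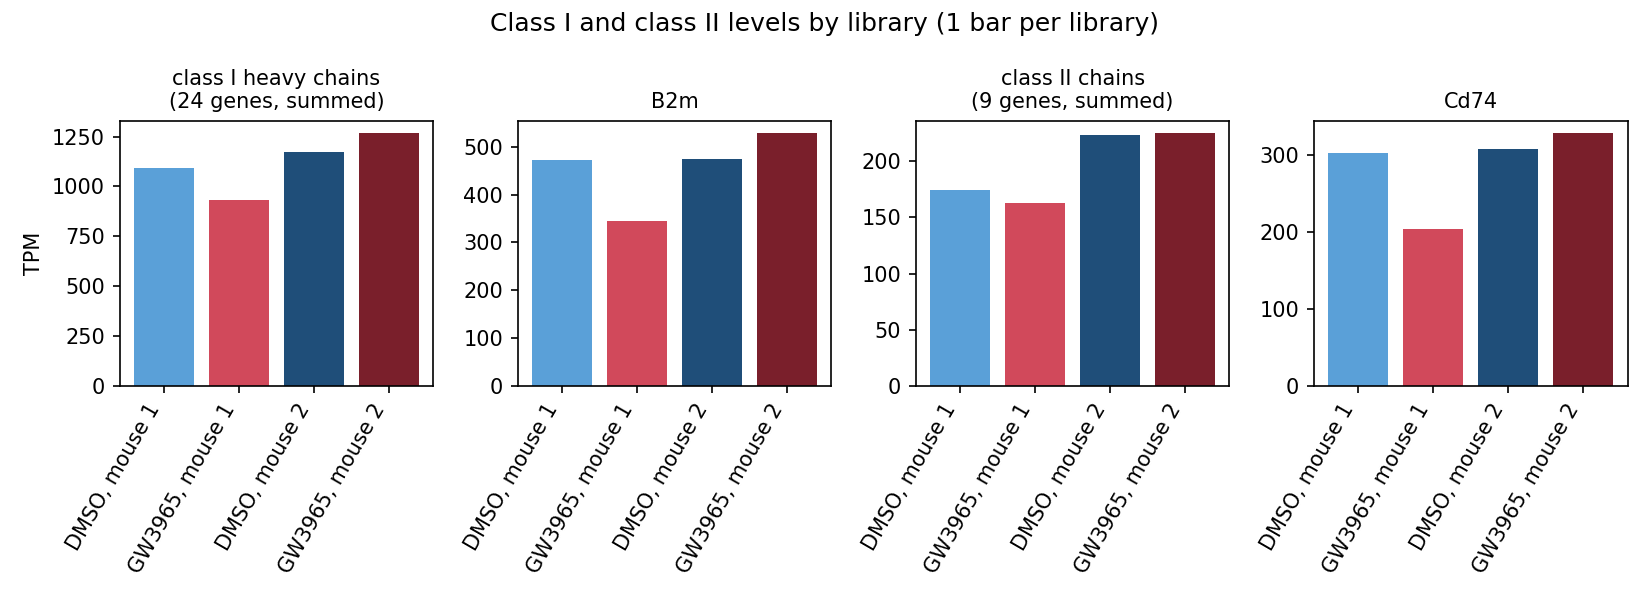
Summed TPM of the 24 class I heavy chains, of B2m, of the 9 class II chains and of Cd74, one bar per library and each axis starting at 0. Class I sums lie between 932 and 1266 TPM and class II sums between 163 and 225 TPM, and the 2 libraries of mouse 2 have the higher class II sums.

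Markers of professional antigen-presenting cells were detected in every library. The 15 markers of dendritic cells and macrophages summed to 17.3 to 20.5 TPM, with Cd209a at 0 in all libraries, and 5 markers of B cells and plasma cells to 6.96, 9.84, 12.4 and 11.3 TPM. The 8 markers of endothelium and mesenchyme summed to 22.2 to 25.8 TPM. How much of the class II RNA came from such cells was not tested.

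GW3965 against DMSO asks whether LXR activation for 6 h altered the presentation genes. In simulated data the test recovered 42% of 2-fold and 90% of 4-fold changes. The absence of a call therefore does not show that a gene was unchanged. No member passed the threshold in either direction, and the class I and class II sums did not separate by treatment. Most tested members had differences of opposite sign in the 2 mice. The share of all genes with opposite signs was not computed, so this is not read as a trait of the members. Of the 43 members, 30 had enough counts to be tested and 13 did not, the latter with at most 7 counts in any library. At an adjusted p under 0.05 in edgeR's quasi-likelihood test, 0 of the 30 were called, where 0.0588% of all 13602 genes tested were called (8 genes, all higher with GW3965). At an unadjusted p under 0.05 there were 2 of 30, H2-Q10 and H2-Q7, against 1.05% of all genes. The median log2 fold change of the 30 was 0.05, with 20 positive and 10 negative values from -0.22 to 0.88, and that of all genes tested was 0.00.

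The summed class I heavy chains differed between treatments by -0.06 in log2 TPM, from -0.23 in mouse 1 and 0.11 in mouse 2 (two-sided exact permutation test, p = 1; 2 libraries against 2 cannot go below 0.333). In normalised CPM the difference was 0.03, the opposite sign (exact permutation p = 0.667). The summed class II chains differed by -0.04 in log2 TPM and by 0.03 in normalised CPM (exact permutation p = 1 for both). Neither class sum can therefore be given a direction. Within class I, the 22 class Ib genes summed to 367, 481, 439 and 449 normalised CPM, so both GW3965 libraries lay above both DMSO libraries, by 0.21 on the log2 scale (exact permutation p = 0.333, the smallest possible). By mouse that difference was 0.39 and 0.03. In TPM the class Ib sum overlapped between treatments, at 302, 305, 339 and 344, and so did the coding transcripts of the 11 tested class Ib genes, at 288, 319, 341 and 344 normalised CPM.

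**Figure D3:**
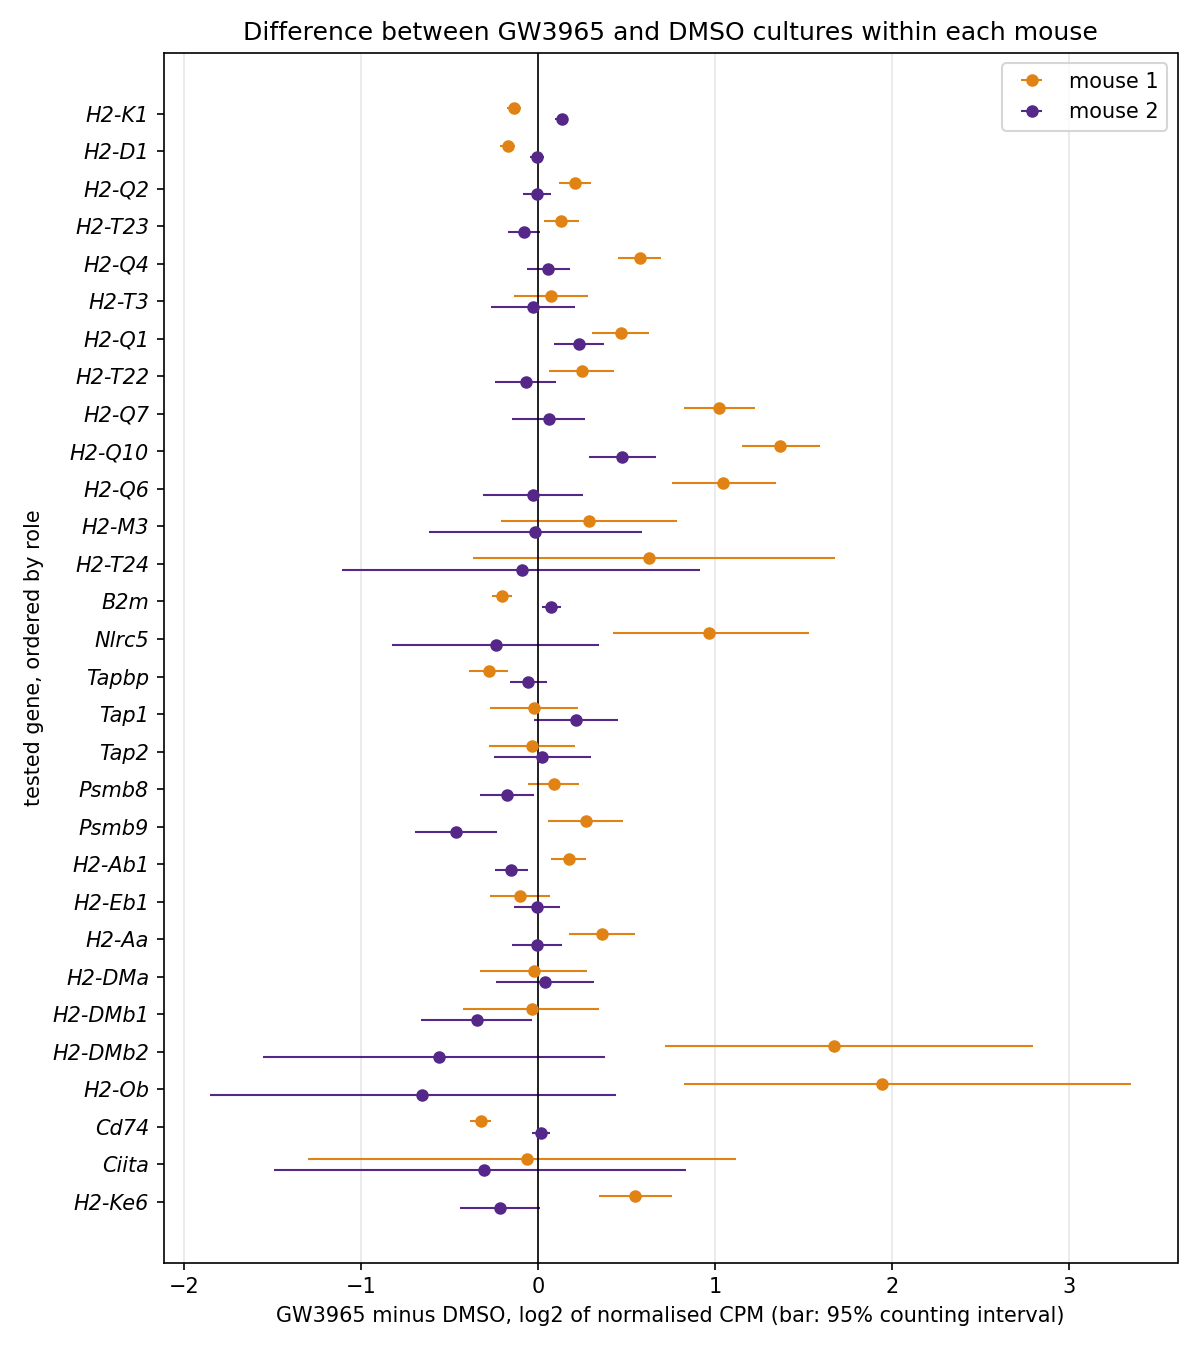
Difference between the GW3965 and the DMSO culture within each mouse, in log2 of normalised CPM, for the 30 tested members grouped by role, with bars for the 95% counting interval only. For 21 of the 30 genes the points of mouse 1 and mouse 2 lie on opposite sides of 0, and the share over all genes was not computed.

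Taken mouse by mouse, the median difference of the 30 members was 0.19 in mouse 1 and -0.02 in mouse 2, and 21 of the 30 had opposite signs. How many of all genes tested had opposite signs was not computed. In mouse 1, H2-K1 differed by -0.14 and B2m by -0.20 on the log2 scale, and in mouse 2 by 0.13 and 0.08. H2-Ab1 went the other way, at 0.17 in mouse 1 and -0.15 in mouse 2, and so did Psmb9, at 0.27 and -0.46. For these 4 genes both 95% counting intervals left out 0, yet each mouse has 1 culture per treatment, so the spread between cultures of a mouse is unknown. Cd74 differed by -0.32 in mouse 1 (293 and 234 normalised CPM) and by 0.02 in mouse 2 (316 and 319). Its fitted log2 fold change was -0.14 ± 0.24 (SE; edgeR adjusted p = 1.00).

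Fitted differences of the other class II and peptide supply genes were less than 1 SE from 0 in the genes named here. H2-Aa had a fitted log2 fold change of 0.13 ± 0.30, H2-Ab1 of 0.00 ± 0.20 and H2-Eb1 of -0.04 ± 0.27 (SE). Tap1 and Tap2 were at 0.10 ± 0.20 and -0.01 ± 0.25, Psmb8 and Psmb9 at -0.04 ± 0.19 and -0.06 ± 0.24. On its protein-coding transcripts alone, given above, Tap2 was higher in both GW3965 libraries than in both DMSO libraries, by 0.81 in mouse 1 and 0.34 in mouse 2 on the log2 scale. The fitted value was then 0.61 in place of -0.01, again not called (edgeR adjusted p = 1.00). Tapbp, at 83.7, 69.0, 79.5 and 76.5 normalised CPM, was one of 2 members whose GW3965 libraries both lay below both DMSO libraries, with a fitted value of -0.17 ± 0.19. The other was Ciita, with a range of 4 counts over all libraries. H2-Ke6, the dehydrogenase gene, was at 0.21 ± 0.25.

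H2-Q1, H2-Q4, H2-Q7 and H2-Q10 were the members whose GW3965 libraries both lay above both DMSO libraries. With Tapbp and Ciita this made 6 of 30 members without overlap (20.0%), where 18.5% of all genes tested had none, so the share is near the background. All 11 tested class Ib genes had a positive fitted value, with a median of 0.27, and the 6 Q genes had a median of 0.43. The class Ib median was 0.47 in mouse 1 and -0.02 in mouse 2, and 7 of the 11 had a negative difference in mouse 2. In mouse 1 H2-Q6 and H2-Q7 differed by 1.04 and 1.02 on the log2 scale, and in mouse 2 by -0.03 and 0.06.

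H2-Q10, which encodes a class Ib molecule known as a secreted product of liver, had the largest difference of the tested members. It stood at 12.7, 32.8, 21.2 and 29.4 normalised CPM, higher with GW3965 in both mice, by 1.37 in mouse 1 and 0.48 in mouse 2 on the log2 scale. The fitted log2 fold change was 0.88 ± 0.25 (SE), with an unadjusted p of 0.00564 and an adjusted p of 1.00 in edgeR. When the mouse was fitted as a block, edgeR gave it an adjusted p of 0.0244, the only member called of 30, where 0.353% of all genes were called. That fit has 1 residual degree of freedom and an infinite prior, so the p reflects the variance of genes of similar expression and not that of H2-Q10.

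Most H2-Q10 counts, 60.5 to 75.6% in a library, lay on H2-Q10-203, an annotated transcript with a retained intron. Its protein-coding transcripts stood at 4.39, 8.01, 6.46 and 11.6 normalised CPM, higher with GW3965 by 0.87 in mouse 1 and 0.85 in mouse 2 on the log2 scale. On protein-coding transcripts alone the fitted value was 0.87, again not called (edgeR adjusted p = 1.00). Of the 31-base words of H2-Q10, 30.3% occur in other genes, 21.9% in H2-Q7, so reads could be divided between these copies.

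**Figure D4:**
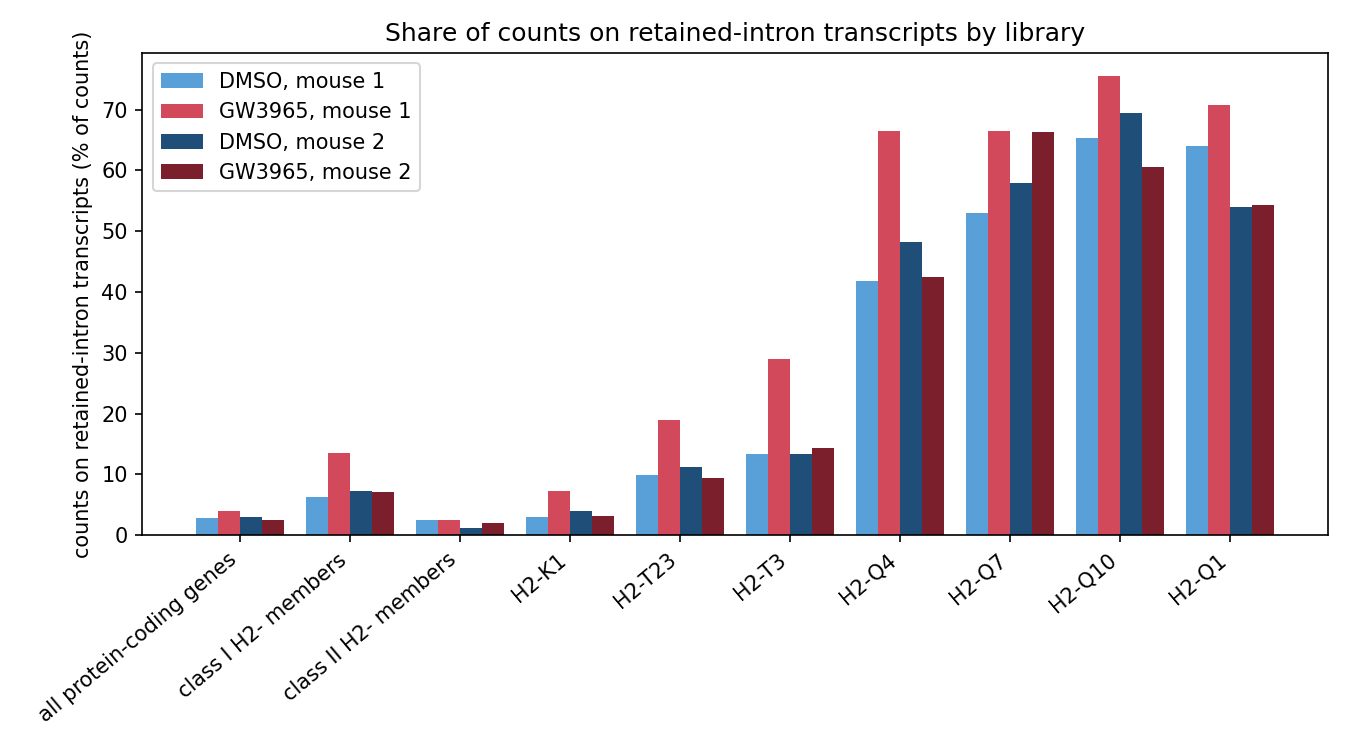
Percentage of counts on transcripts annotated as retained intron, by library, for all protein-coding genes, for class I and class II H2- members, and for 7 class I genes. The GW3965 library of mouse 1 has the tallest bar of the 4 for all protein-coding genes, for the class I members together and for each of the 7 genes shown.

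Retained-intron transcripts took a larger share of the summed counts of class I than of class II genes, though not in every gene. They made up 6.31, 13.6, 7.34 and 7.02% of the counts of class I H2- members and 2.46, 2.55, 1.25 and 1.94% of those of class II H2- members, against 2.78, 3.91, 2.94 and 2.54% over all protein-coding genes. The GW3965 library of mouse 1 had the highest share for all 9 class I genes with such a transcript and a mean of at least 100 counts. In H2-Q4 the share was 41.7, 66.5, 48.2 and 42.5%, in H2-T23 9.96, 18.9, 11.2 and 9.42%, and in H2-K1 3.04, 7.27, 4.02 and 3.22%. The share was only 0.474, 0.892, 0.446 and 0.179% in H2-D1, and 36.3, 40.1, 22.0 and 32.9% in the class II gene H2-DMa. Over protein-coding transcripts alone, the 11 class Ib genes had a median fitted log2 fold change of 0.19, with 9 positive and with H2-T23 and H2-T3 negative, and the 6 Q genes one of 0.21 in place of 0.43. Of the 4 members above both DMSO libraries in total counts, H2-Q1, H2-Q4 and H2-Q7 overlapped between treatments on protein-coding transcripts, and H2-Q10 did not. H2-Q4 had 30.4, 26.0, 30.1 and 34.8 normalised CPM on them, H2-Q1 10.9, 12.2, 18.7 and 21.8, and H2-Q7 7.93, 11.5, 8.43 and 7.05. Tap2 joined H2-Q10, which left 2 of 30 members higher without overlap, and Ciita and Tapbp lower. The share of all genes without overlap on protein-coding transcripts was not computed, so this count is not read as a result about the members.

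A few low members were highest in the same library. H2-DMb2 had 12, 33, 25 and 17 counts, H2-Ob 8, 27, 19 and 12, and Nlrc5 46, 76, 56 and 48. In that culture, GW3965 of mouse 1, the leukocyte marker Ptprc had 359 counts against 209, 240 and 219 in the other cultures. None passed the test, with fitted log2 fold changes of 0.57 ± 0.56, 0.66 ± 0.63 and 0.42 ± 0.39 (SE). The part of leukocyte RNA in these values was not tested.

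Other genes of the pathway did not pass the test either. Of 13 tested genes of class I loading and the proteasome, 0 were called and the median log2 fold change was -0.12; Erap1, the peptide-trimming aminopeptidase of the endoplasmic reticulum, was at -0.23 and the chaperone Canx at -0.17. Of 13 tested genes of class II trafficking and control, 0 were called with a median of -0.02; Rfx5, a subunit of the complex that binds the class II promoter module, was at 0.26, and Ifi30, an endosomal thiol reductase, at -0.13. The 21 tested genes of interferon-gamma signalling gave 0 calls and a median of -0.07, with Gbp7 at 0.69, Cd274 (PD-L1) at 0.66, Ido1 at 0.41 and Irf8 at -0.28. MHC-like genes (6 tested, median -0.07) and T cell costimulation genes (6 tested, median 0.22) gave 0 calls, with Cd1d1, which presents lipids, at 0.69 and Cd86 at 0.68. All values are log2 fold changes of GW3965 against DMSO, against a median of 0.00 over all genes. Cd86 had 6 to 12 counts, and Cd1d1 22, 50, 35 and 34.

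Between mouse 2 and mouse 1, the members with the smallest p were the class II chains H2-Aa and H2-Eb1. H2-Aa stood at 23.2 and 29.7 normalised CPM in mouse 1 and at 43.5 and 43.3 in mouse 2. H2-Eb1 stood at 32.9 and 30.6 in mouse 1 and at 50.2 and 50.0 in mouse 2. In both genes both cultures of mouse 2 lay above both cultures of mouse 1, and the cultures of mouse 2 were nearly equal. The fitted log2 difference, mouse 2 minus mouse 1 with treatment as a term, was 0.72 ± 0.23 for H2-Aa and 0.66 ± 0.23 for H2-Eb1 (SE; edgeR adjusted p = 0.176 and 0.366), so neither passed the threshold.

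H2-Ab1, the partner of H2-Aa in the I-A molecule, differed far less, at 0.08 ± 0.26, with 87.1, 98.1, 103 and 92.9 normalised CPM and overlapping mice. The ratio of H2-Aa to H2-Ab1 in TPM was accordingly 0.288, 0.326, 0.457 and 0.506. H2-DMb1 was at 0.49 ± 0.28, Cd74 at 0.28 ± 0.29 and H2-DMa at 0.15 ± 0.26. The summed class II chains differed by 0.41 in log2 TPM and the summed class I heavy chains by 0.27, and the ratio of class I to class II in TPM was lower in both cultures of mouse 2 (5.23 and 5.63) than in both of mouse 1 (6.26 and 5.71). In normalised CPM that ratio overlapped between mice.

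**Figure D5:**
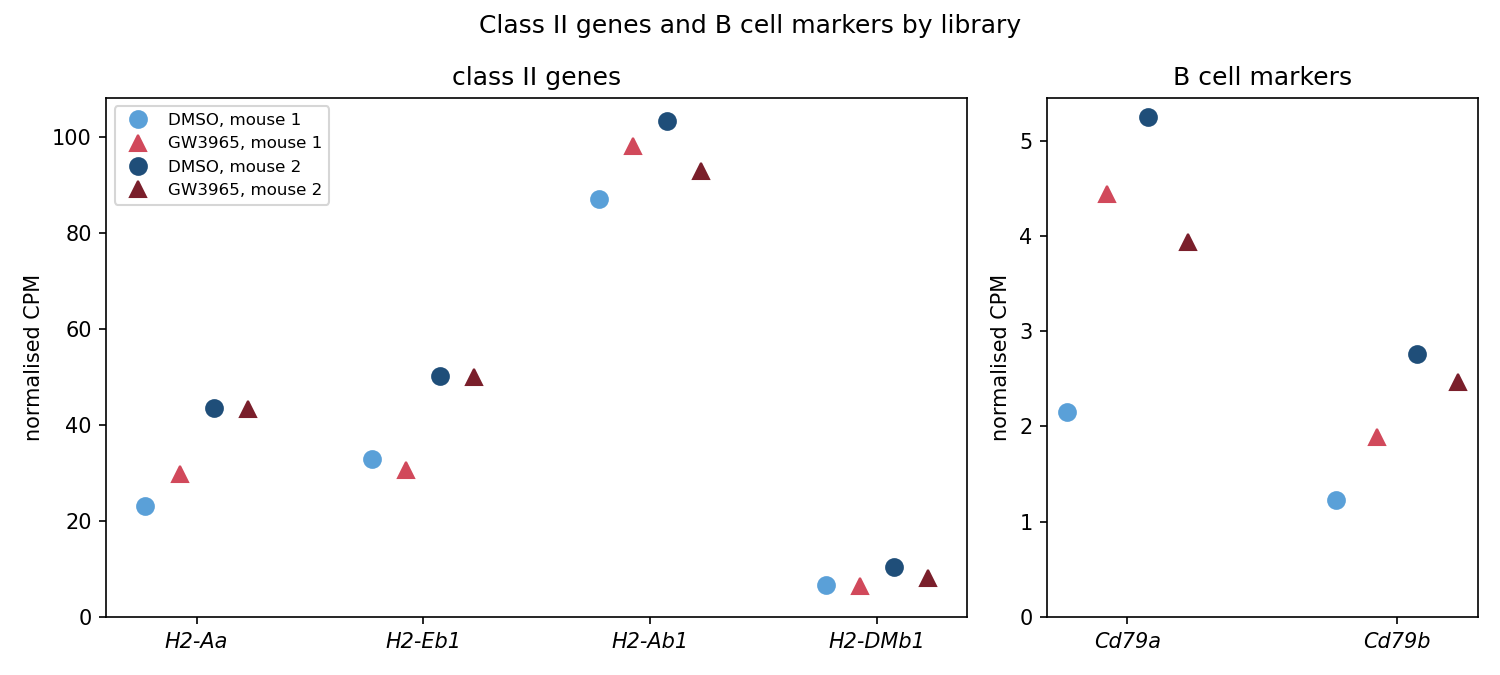
Normalised CPM of 4 class II genes (left) and 2 B cell markers (right) by library, each axis starting at 0 (circles DMSO, triangles GW3965, light shades mouse 1, dark shades mouse 2). H2-Aa and H2-Eb1 are higher in both cultures of mouse 2 than in both of mouse 1, and Cd79b shows the same order of mice at under 3 CPM. Jchain and Ms4a1 are not shown. Of the 4 tested B cell and plasma cell markers reported, 3 were positive and 1 negative between mice, and 1 did not overlap. T cell and intraepithelial lymphocyte markers, also not shown, were negative in 10 of 10.

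Of the 4 tested B cell and plasma cell markers reported here, 3 had a positive and 1 a negative difference between mice (median 0.31). Of these, 1 did not overlap between mice, Cd79b, which was higher in both cultures of mouse 2. Over all genes tested, 41.2% did not overlap. Cd79a, a signalling chain of the B cell receptor, had 42, 73, 99 and 75 counts, and its partner Cd79b had 24, 31, 52 and 47. Their fitted log2 differences between mice were 0.54 and 0.76, those of Jchain and Ms4a1 0.09 and -0.14, and none was called. T cell and intraepithelial lymphocyte markers went the other way, with 10 of 10 tested markers negative and Gzma, a cytotoxic granule protease, called lower in mouse 2 (-0.93, edgeR adjusted p = 0.0366). Of 9 tested markers of dendritic cells and macrophages, 7 were negative and 2 positive (median -0.22, range -6.65 to 0.67), with 1 called lower in mouse 2. Of 6 leukocyte markers, 5 were negative and 1 positive (median -0.29), with 0 called. Epithelial markers had the same sign as H2-Aa and H2-Eb1 in most cases: 13 of 15 were positive with a median of 0.30. Of the 15, 11 did not overlap between mice (73.3%, 9 higher and 2 lower in mouse 2), against 41.2% of all genes tested. In edgeR 0 of them were called and 2 had an unadjusted p under 0.05. The part of B cells, of other leukocytes and of epithelial content in the class II difference was not tested.

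Over all members the comparison of mice gave 0 calls of 30, where 0.684% of all genes tested were called (46 higher and 47 lower in mouse 2). At an unadjusted p under 0.05 there were 2 of 30, H2-Aa and H2-Eb1, against 5.01% of all genes. Both libraries of mouse 2 lay above or below both of mouse 1 in 13 of 30 members (43.3%, 9 higher and 4 lower), where 41.2% of all genes did so. The 4 lower members were Psmb8, Tap2, H2-T3 and H2-M3. Without the DMSO library of mouse 1, 8 members were called, where 2811 genes were called in all (19.9% of those tested). H2-Aa (0.54), H2-Eb1 (0.71) and Cd74 (0.44) were higher in mouse 2, and H2-Q7 (-0.75), H2-Ke6 (-0.63), H2-Q6 (-0.58), H2-T3 (-0.48) and H2-Q4 (-0.39) were lower. Without the GW3965 library of mouse 1, 3 members were called, H2-Aa (0.90), H2-Eb1 (0.61) and H2-Q10 (0.99), all higher in mouse 2, and 140 genes in all (1.01%). These fits rest on 1 library of mouse 1 each, whose spread is assumed to be that of the others. They had no treatment term, and mouse 1 was represented by 1 treatment alone. Their values therefore also hold any difference between treatments. No member was called when the DMSO or the GW3965 library of mouse 2 was left out instead.

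The authors' deposited table of log2 CPM held 19 of the members and showed almost no gap between the mice. In the authors' deposited table the mean of mouse 2 minus that of mouse 1 was 0.09 for H2-Aa and 0.07 for H2-Eb1, where the log2 CPM computed here gave 0.72 and 0.66. Over 8463 gene symbols the median absolute gap between mice was 0.016 in the authors' deposited table and 0.165 in the computed values, so the differences between mice described above are not seen in that table. The sources used here do not give the scaling of its values or say whether they were adjusted for the mouse, so the small gap in that table cannot be read as a measurement of how far the mice differ.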

How the data were processed

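Per the labels' protocols, poly-A RNA was sequenced after a stranded preparation, with single-end reads of 50 bases. The submitters' processing notes name kallisto and FastQC without a version, CASAVA 1.7 and the build mm10; whether counting used strand is not given. The kallisto output deposited by the authors for each library holds, per the file headers, estimated counts and TPM per transcript. The authors also deposited 1 table of these counts as whole numbers for the 4 libraries together, and 1 table of log2 CPM.

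Of 88198 transcripts, 86119 matched GENCODE M21 (GRCm38) and were summed over genes and rounded; the unmatched 2079 held 0.685 to 0.854% of a library's counts and stayed out. The test was that of edgeR 4.0.16, run in R 4.3.3 (filterByExpr, TMM, glmQLFit, glmQLFTest; Benjamini-Hochberg over 13602 genes; threshold 0.05), which had been tested on simulated data. For treatment, the simulation recovered 42% of 2-fold and 90% of 4-fold changes, and 12 of 144 calls were false. For the mice it recovered 54% and 97%, and 24 of 175 calls were false. The treatment comparison had 2 residual degrees of freedom and a prior of 7.78. Normalised CPM use TMM-scaled library sizes, and SE derive from the F statistic. DESeq2 1.42.0 and limma 3.58.1 (voom) served as alternatives. The mouse comparison kept treatment as a term, but its fits with 1 library left out did not.

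The labels give libraries with the same number as 1 mouse; their deviations from the group means correlated at 0.105 across genes. Counts of each pair of libraries differed by more than sampling noise (chi-square over degrees of freedom 10.5 to 77.6). The cultures of a treatment come from different mice. The edgeR p-values for treatment combine the spread between these 2 cultures with the variance of genes of similar expression. The mouse comparison had 1 residual degree of freedom and an infinite prior. Its p-values and SE therefore reflect the variance of genes of similar expression and not that of the named gene. Intervals within a mouse are exact 95% binomial intervals and cover counting error only.

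Kallisto divides reads that fit several transcripts, so values of near-identical H2- copies are uncertain. Shared sequence is the share of a gene's 31-base words found in transcripts of another gene. Members with a mean of at least 1 TPM, Ciita and Nlrc5 are named with values, and of each related list up to 4 tested genes with the smallest p. One marker gene is not reported here. The members and lists were chosen with earlier results of these data known. A planned search for genes with a pattern like that of class II was not made, since 4 libraries are too few for a correlation. Added after the data were seen were fits with the class I genes merged, without mitochondrial genes and on protein-coding transcripts alone, and class sums without transcripts under 300 bases.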

Additional observations from a re-analysis of the deposited data

Results flagged for a closer look

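Some differences between GW3965 and DMSO had opposite signs in the 2 mice, with both 95% counting intervals leaving out 0. Mouse 2 minus mouse 1, this difference of differences was 0.28 for B2m, 0.27 for H2-K1, -0.32 for H2-Ab1 and -0.73 for Psmb9 on the log2 scale. For the summed class II counts it was -0.24, from 0.15 in mouse 1 and -0.09 in mouse 2. None of these was tested, since each mouse has 1 culture per treatment.

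Genes with an H2- symbol that are not annotated as protein-coding were outside the comparisons, and 5 of them had more than 3 counts in every library. H2-Q5 had a mean of 141 estimated counts (110, 206, 138 and 110), H2-Bl 121 (126, 140, 107 and 112) and H2-K2 96.0 (66, 100, 111 and 107). H2-T10 had a mean of 38.8 counts and H2-T-ps 26.2. H2-T10 holds 47.2% of the 31-base words of H2-T22, and H2-Q5 15.5% of those of H2-Q7, so their reads may be divided with those members.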

How the results depend on the processing

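Each treatment had 2 cultures. With the replicate block for the mouse, GW3965 against DMSO gave 48 genes and 1 member, H2-Q10; the block changed no other call of a member. The count over all genes, 8, was 20 with DESeq2, 20 with limma-voom, 14 without a filter and with 1 library left out 38 (DMSO, mouse 1), 54 (GW3965, mouse 1), 54 (DMSO, mouse 2) and 84 (GW3965, mouse 2); no member was called in any of these fits. For GW3965, 21 of 28 named members had the opposite sign in at least 1 alternative, none of them called on either side. For mouse 2 against mouse 1 the main count of 93 genes was 10 without the treatment term (no replicate block), 28 with DESeq2, 56 on protein-coding transcripts alone and with 1 library left out 2811 (DMSO, mouse 1), 140 (GW3965, mouse 1), 78 (DMSO, mouse 2) and 50 (GW3965, mouse 2), where members called ranged from 0 to 8. The ratio of class I to class II was 8.35 in CPM, 4.56 for classical genes alone, 5.63 without short transcripts and 5.52 to 5.87 with 1 library left out. Merging the class I genes or leaving out mitochondrial genes kept 0 members called and 8 genes. Depth limits Ciita, H2-Ob, H2-DMb2 and the 13 untested members most, and it was not detectable at this depth whether these differ.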
